A study of Mus musculus with 6 samples.

Results

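Srf and 9 contractile or actin-linked genes were followed in cultured mouse fibroblasts. The 10 genes, Srf, Acta2, Tagln, Cnn1, Myl9, Tpm1, Tpm2, Vcl, Flna and Actg1, were taken by name out of 55291 genes listed in the expression tables. The cells were wild-type mouse embryonic fibroblasts (MEFs), and polyA RNA was sequenced from 3 groups of 2 libraries each. All 3 groups had the same wild-type genotype and differed in treatment: vehicle, MASM7, a small molecule that activates mitofusins, or MFI8, a small molecule that inhibits them. Mitofusins are the GTPases that join the outer membranes of neighbouring mitochondria. The labels give no dose, but the study describes the treatments behind its expression data as equal in time and higher in concentration for MFI8 than for MASM7. Compound and concentration therefore cannot be told apart. The age of the embryos and the number of cultures or embryos behind the libraries are not given in the sources used here. If 2 libraries of a group came from 1 culture, the p-values below measure technical spread alone.

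Serum response factor, the product of Srf, is a transcription factor that binds a short DNA element called the CArG box. It works with 2 families of partners. The myocardin-related factors (MRTFs) are held back by free actin monomers and enter the nucleus when actin polymerises, where they drive cytoskeletal and contractile genes, Srf among them. The ternary complex factors (TCFs) respond to growth factor signalling and drive immediate early genes. In fibroblasts high levels of smooth muscle actin (Acta2) and of transgelin (Tagln) are the usual signs of a contractile, myofibroblast-like state.

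The library totals ran from 22791792 to 30677751 counts. Of 12 fibroblast markers 11 passed the filter on low counts, and the summed level of the list was 5468 to 7052 TPM (a level corrected for transcript length and library size) over the 6 libraries. Vim, S100a4, Col1a1, Col1a2 and Fn1 carried this sum, whereas Thy1 and Postn had at most 19 counts and Lum at most 4. The defining genes of muscle were nearly absent. Myocd, the muscle-restricted SRF partner, had 0 counts in every library, Myh11 had at most 11 counts, and Myod1, Myog, Myf5, Ckm and Myh6 were at 0. The summed level of the smooth muscle list was nonetheless 90.3 to 93.7 TPM in vehicle, 108 to 109 in MASM7 and 107 in MFI8, carried by Smtn (smoothelin). Skeletal and cardiac lists summed to at most 1.56 and 2.72 TPM. Tnnt2, at 1.01 to 2.13 TPM, carried most of the cardiac sum. Endothelial and epithelial lists summed to at most 0.455 and 1.69 TPM, with Kdr at 0. The immune list summed to 13.6 to 17.2 TPM, with Adgre1 and Cd3e at 0. Cd68 (8.91 to 11.9 TPM) and Csf1r (4.18 to 6.01 TPM) carried that immune sum. In bulk RNA, fewer cells of a type and less RNA per cell cannot be told apart.

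Sequence around the start sites of these genes is shown because the CArG box is the element through which SRF acts. RefSeq promoter windows (GRCm38.p6, 250 bases before to 50 after the start site) were found for 9 of the 10 genes, all but Tagln. They were searched on both strands for CC, then 6 letters of A or T, then GG. The box was present in 4 of the 9, against 1.63% of 32851 windows of the same length. Because the genes were chosen by name as Srf and contractile genes, these shares are a description and not a test. Each sequence is written 5′ to 3′ on the strand of its gene, with the box in capitals and 10 bases on either side.
Srf, box starting 82 bases before the start site, chr17:46556225-46556254, minus strand: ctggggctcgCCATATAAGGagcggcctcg
Srf, box starting 62 bases before the start site, chr17:46556205-46556234, minus strand: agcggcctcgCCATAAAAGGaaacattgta
Actg1, box starting 90 bases before the start site, chr11:120348566-120348595, minus strand: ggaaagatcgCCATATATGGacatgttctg
Myl9, box starting 161 bases before the start site, chr2:156775293-156775322, plus strand: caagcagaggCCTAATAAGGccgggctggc
Vcl, box starting 227 bases before the start site, chr14:20929161-20929190, plus strand: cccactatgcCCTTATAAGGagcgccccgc
Acta2 held no exact box, but held 2 that were 1 letter off, a looser pattern found in 8.5% of all windows.
Acta2, starting 84 bases before the start site, chr19:34255438-34255467, minus strand: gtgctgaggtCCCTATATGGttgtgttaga
Acta2, starting 34 bases before the start site, chr19:34255388-34255417, minus strand: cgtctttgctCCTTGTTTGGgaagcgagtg
These matches are letters in a window and were not measured as binding. Cnn1, Tpm1, Tpm2 and Flna held no exact box in these windows. The Flna window (chrX:74246485-74246784, minus strand) lay inside the gene as annotated (chrX:74223461-74249820), so the annotated 5′ end of Flna was not searched.

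In vehicle cells the genes spanned a wide range of levels per transcript length. Actg1, which encodes cytoplasmic gamma actin, was highest at 1705 ± 23.1 TPM (SD, n = 2). It was followed by Flna, the actin crosslinker filamin A, at 1063 ± 17.5, Tpm1 at 876 ± 35.4 and Acta2 at 390.5 ± 157. Vcl stood at 226 ± 0.288, Tpm2 at 205 ± 3.69 and Srf at 101 ± 3.9. Tagln had 55.9 ± 27.1 and Myl9 14.6 ± 2.89. No neighbours in this order overlapped between the 2 vehicle libraries, although Acta2 and Tagln had by far the widest spread for their level. Cnn1, which encodes the smooth muscle calponin, was close to absent, with 2 and 2 counts in vehicle, 2 and 1 in MASM7 and 5 and 3 in MFI8. It did not pass the filter on low counts, and no fold is given for it.

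**Figure D1:**
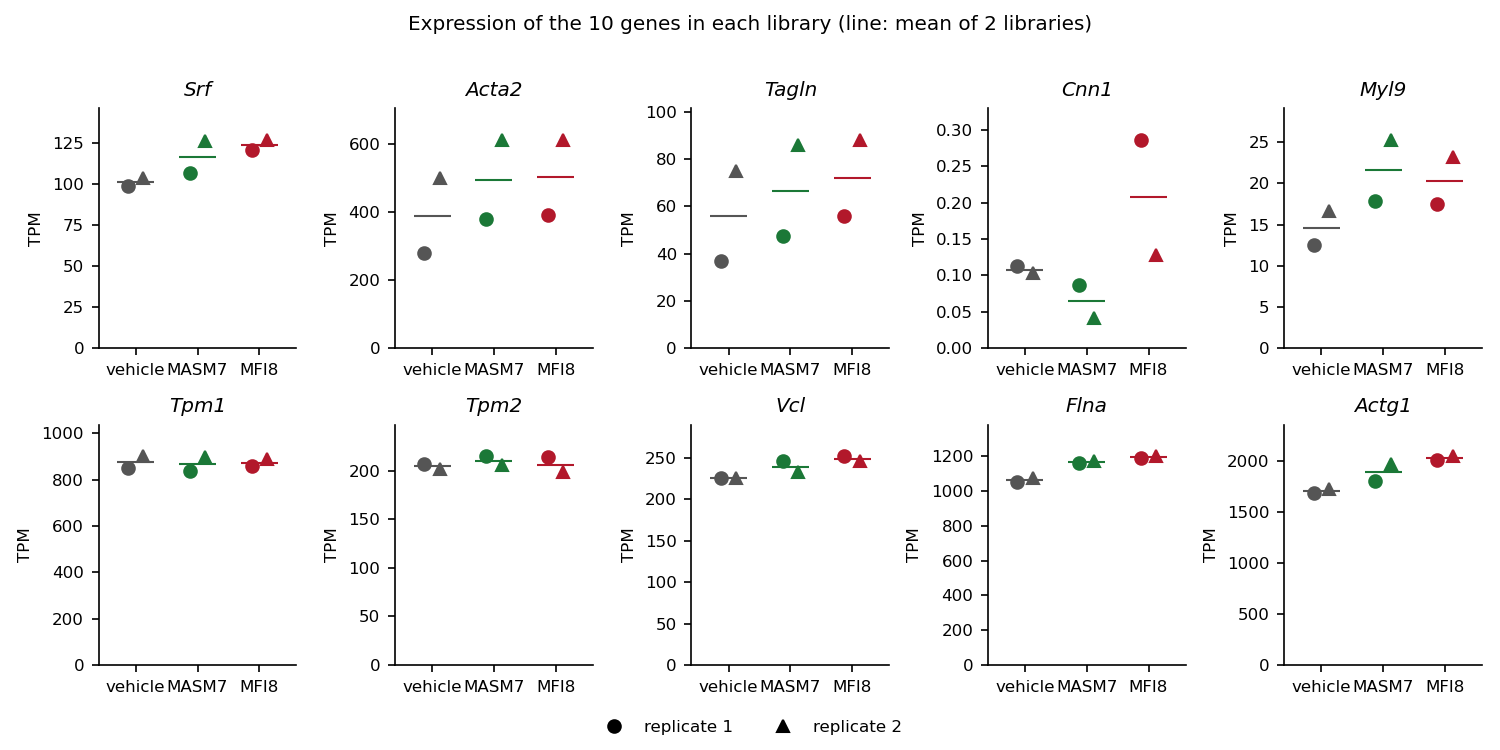
TPM of each of the 10 genes in every library, 1 panel a gene with its own linear axis from 0, with circles for replicate 1, triangles for replicate 2 and a line at the mean of the 2 libraries. In the Acta2 and Tagln panels replicate 2 stands well above replicate 1 in every group, whereas the 2 Flna libraries of each group nearly coincide.

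Without a term for replicate number, none of the 9 genes tested passed an adjusted p of 0.05 for either compound (edgeR quasi-likelihood test, Benjamini-Hochberg adjustment over 14290 genes). Nor did any other gene: 0% of all genes were called for MFI8, 0% for MASM7 and 0% between the compounds, while 1409, 1458 and 1026 genes had an unadjusted p under 0.05. DESeq2 called 49, 3 and 21 genes in the same comparisons, none of them among the 9. At an unadjusted p under 0.05 and higher than vehicle were 4 of the 9 for MFI8, against 5.21% of all genes, and 4 for MASM7, against 5.32%. The 9 genes had a median log2 fold change of 0.224 for MFI8 and 0.165 for MASM7, where the medians over all genes were 0.0027 and 0.000669. The 2 comparisons share the vehicle libraries. An exact permutation test of 2 libraries against 2 cannot go below 0.333.

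Every group has a replicate 1 and a replicate 2, and libraries of the same number deviated together. A second fit, blocked on that number, was therefore set beside the first. It called 4 of the 9 genes higher for MFI8, against 2.79% of all genes, and 6 for MASM7, against 2.48%, and none lower. The labels name no shared day, culture or batch, so this correlation is the only ground for pairing them. The blocked fit also left 2 residual degrees of freedom and took the rest of its estimate of spread, 25.9 prior degrees of freedom, from all genes together. The calls below that need the block carry that limit.

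Srf (chr17:46548329-46556175) had 98.7 and 104 TPM in vehicle, 107 and 126 in MASM7 and 121 and 127 in MFI8. Both libraries of either compound were above both vehicle libraries. The log2 fold change was 0.26 (SE 0.0792, edgeR adjusted p = 0.384) for MFI8 and 0.22 (SE 0.0789, adjusted p = 0.473) for MASM7. With the block the adjusted p became 0.00442 and 0.0218, and with DESeq2 and the block 0.019 and 0.0649. The MASM7 value without the block was 0.0944 when MASM7 replicate 2 was left out and 0.339 when MASM7 replicate 1 was. Srf transcripts had a GC content of 64.4%, above the 48.6% to 56.6% of the other 9 genes. With offsets for GC content and length added to the block, chosen after the data were seen, the MFI8 value was 0.16 (adjusted p = 0.0341) and the MASM7 value 0.05 (adjusted p = 0.684).

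Acta2 (chr19:34241090-34255590), the smooth muscle actin that marks myofibroblasts, had 279.7 and 501 TPM in vehicle, 379 and 613 in MASM7 and 393 and 612 in MFI8. The groups overlapped, and each pair was split by replicate number: replicate 2 was the higher library in all 3 groups. The log2 fold change was 0.34 (SE 0.286, edgeR adjusted p = 0.718) for MFI8 and 0.36 (SE 0.285, adjusted p = 0.659) for MASM7. Within a replicate number the log2 difference from vehicle was 0.45 and 0.27 for MFI8 and 0.44 and 0.32 for MASM7, all upward. The blocked fit gave 0.36 (SE 0.0466, adjusted p = 1.13e-05) and 0.38 (SE 0.0463, adjusted p = 3.57e-05). The GC and length offsets left both calls in place, at 0.36 and 0.37. Without the block, leaving out vehicle replicate 1 took the MFI8 value to -0.0108, and leaving out MFI8 replicate 2 took it to -0.0169. Leaving out MASM7 replicate 2 took the MASM7 value to -0.0284.

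Actg1 (chr11:120345690-120348542) had 1689 and 1721 TPM in vehicle, 1806 and 1974 in MASM7 and 2013 and 2045 in MFI8, with no overlap between vehicle and either compound. The log2 fold change was 0.22 (SE 0.0538, edgeR adjusted p = 0.304) for MFI8 and 0.17 (SE 0.0538, adjusted p = 0.473) for MASM7. With the block the adjusted p was 0.00275 and 0.0361, and with the offsets as well it was 0.00035 and 0.0857. The MASM7 value without the block was 0.0965 when MASM7 replicate 2 was left out. Actins, tropomyosins and myosin light chains have close relatives in sequence, and how reads shared between them were counted is not given in the sources used here, so these values are uncertain to that extent.

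Tagln (chr9:45929619-45936058), which encodes the actin-binding protein transgelin, had 36.8 and 75.1 TPM in vehicle, 47.5 and 85.7 in MASM7 and 56.1 and 88.1 in MFI8. As with Acta2, the groups overlapped and replicate 2 was higher in each. The log2 fold change was 0.34 (SE 0.335, edgeR adjusted p = 0.768) for MFI8 and 0.27 (SE 0.334, adjusted p = 0.792) for MASM7. The blocked fit gave 0.36 (adjusted p = 0.00362) and 0.28 (adjusted p = 0.0299), and the MASM7 call was lost with the offsets (adjusted p = 0.144). Without the block, leaving out vehicle replicate 1 gave -0.0648 for MFI8 and -0.146 for MASM7. Leaving out replicate 2 of the compound gave -0.0259 and -0.226. Exons of Tagln overlap Pcsk7 on the opposite strand, and those of Vcl overlap Ap3m1. Whether strand was used in counting is not given in the sources used here, so reads of these partners cannot be told apart.

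Myl9 (chr2:156775420-156781658), a regulatory light chain of smooth and nonmuscle myosin, had 12.6 and 16.7 TPM in vehicle, 17.9 and 25.3 in MASM7 and 17.5 and 23.2 in MFI8. The counts behind these were 95 to 257, the lowest of the 9 genes tested. Both compounds lay above vehicle without overlap. The log2 fold change was 0.58 (SE 0.218, edgeR adjusted p = 0.477) for MASM7 and 0.46 (SE 0.222, adjusted p = 0.533) for MFI8, the largest of the 9 for either compound. With the block the MASM7 value passed (adjusted p = 0.0195) and the MFI8 value did not (adjusted p = 0.0625). With the offsets the values were 0.49 and 0.42, and neither passed (adjusted p = 0.0794 and 0.0912). Without the block, the MASM7 value was 0.305 when MASM7 replicate 2 was left out and 0.81 when MASM7 replicate 1 was, and the MFI8 value was 0.232 without MFI8 replicate 2, 0.285 without vehicle replicate 1 and 0.67 without vehicle replicate 2.

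The tropomyosins, which lie along actin filaments and govern access of myosin, had values close to those of vehicle. Tpm1 (chr9:67022590-67049406) had 851 and 901 TPM in vehicle, 836 and 899 in MASM7 and 857 and 889 in MFI8. Its log2 fold change was -0.03 for MFI8, with a 95% interval of -0.15 to 0.09, and 0.00281 for MASM7, with an interval of -0.12 to 0.12. Tpm2 (chr4:43514711-43523765) had 207 and 202 TPM in vehicle, 215 and 206 in MASM7 and 214 and 199 in MFI8. Its intervals were -0.14 to 0.11 for MFI8 and -0.07 to 0.18 for MASM7. Neither passed in any of the blocked fits, and the sign of these small values turned under some scalings.

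At the links between actin and the membrane, Vcl (chr14:20929398-21033676), the focal adhesion protein vinculin, had 226 and 226 TPM in vehicle, 246 and 233 in MASM7 and 252 and 246 in MFI8. Its log2 fold change was 0.11 (SE 0.0494, edgeR adjusted p = 0.494) for MFI8 and 0.10 (SE 0.0494, adjusted p = 0.506) for MASM7, and the block did not bring either past the threshold (0.135 and 0.175). Leaving out MASM7 replicate 1 took the MASM7 value, without the block, to 0.0669. Flna (chrX:74223461-74249820) had 1051 and 1076 TPM in vehicle, 1161 and 1171 in MASM7 and 1187 and 1199 in MFI8. It had the smallest standard error of the 9 (0.0431), with a log2 difference from vehicle of 0.15 and 0.15 within the replicate numbers for MASM7 and 0.14 and 0.14 for MFI8. The edgeR adjusted p was 0.466 for MASM7 and 0.387 for MFI8, and with the block 0.0453 and 0.0554. DESeq2 with the block called Flna for both (adjusted p = 0.0063 and 0.00784), and the blocked edgeR fit with a robust prior called it for MFI8 too (adjusted p = 0.0456). The offsets took Flna to 0.09 (adjusted p = 0.15) and 0.04 (adjusted p = 0.498).

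CPM are the counts scaled to library size and TMM factor. In CPM, both libraries of the compound were above both vehicle libraries for 5 of the 9 genes with MFI8 (Srf, Myl9, Vcl, Flna and Actg1), where 20.9% of all genes were so placed. With MASM7 it was 6 of the 9, Tpm2 in addition, against 21.2%. In TPM, Tpm2 overlapped, with 206 in MASM7 replicate 2 and 207 in vehicle replicate 1.

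**Figure D2:**
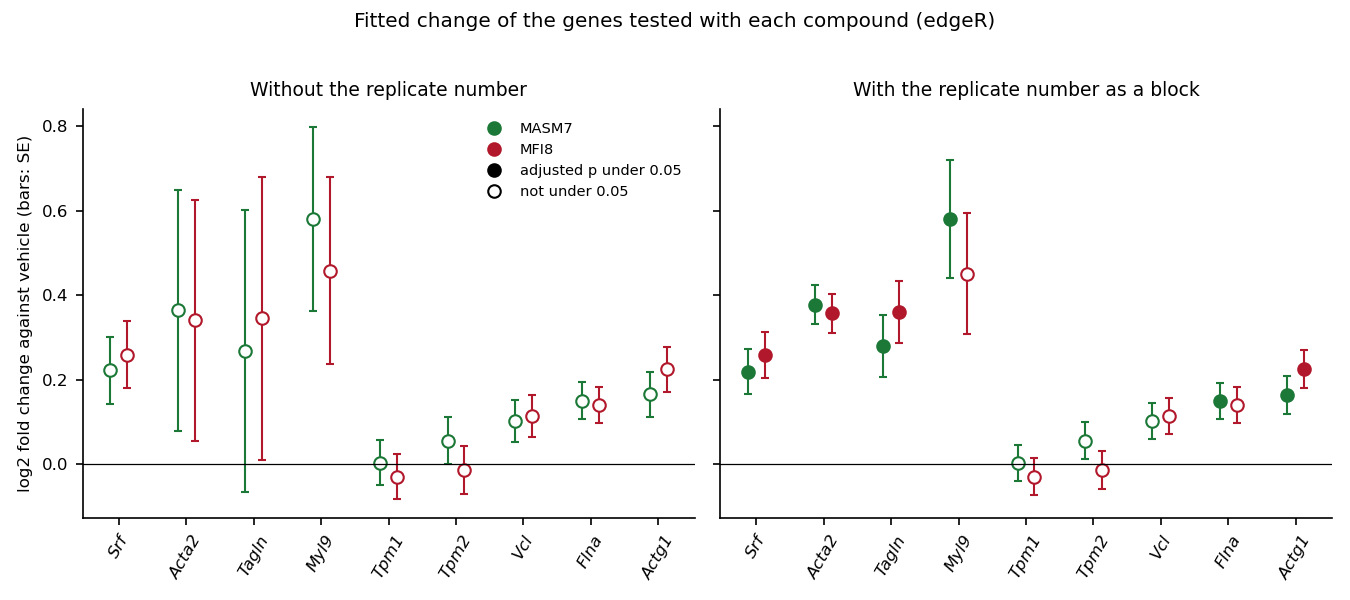
Log2 fold change against vehicle of the 9 genes tested, for MASM7 and MFI8, without the replicate number (left) and with it as a block (right). Bars are 1 SE to each side and filled points have an adjusted p under 0.05. No point is filled on the left, 6 MASM7 and 4 MFI8 points are filled on the right, and the bars of Acta2 and Tagln are much shorter there.

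The differences by replicate number were larger than those by compound for Acta2 and Tagln. Replicate 2 was above replicate 1 by a log2 value of 0.72 for Acta2 (SE 0.0379, edgeR adjusted p = 7.88e-14), 0.83 for Tagln (SE 0.0595, adjusted p = 6.16e-11) and 0.44 for Myl9 (SE 0.112, adjusted p = 0.0118). These were 3 of the 9 genes, where 2.54% of all genes were called higher in replicate 2. In CPM the ratio of replicate 2 to replicate 1 was 1.77 in vehicle, 1.63 in MASM7 and 1.56 in MFI8 for Acta2, and 2.02, 1.81 and 1.57 for Tagln. Flna gave 1.01 in all 3 groups. Fibroblast markers had the opposite sign: 9 of 11 were called lower in replicate 2, against 5.13% of all genes, with a median of -0.338. With the block 5 of the 11 were also called lower for MFI8, against 2.25% of all genes, among them Col3a1 (-0.50, edgeR adjusted p = 1.13e-05) and Dcn (-0.36, adjusted p = 4e-05), both named after their values were seen, and 0 for MASM7. Without the block, leaving out vehicle replicate 1 took Col3a1 and Dcn to -0.06 and -0.01 for MFI8. Between the compounds 6 of the 11 markers were called lower in MFI8 with the block, against 1.31% of all genes. The part of the fibroblast marker shift in the values of Acta2 and Tagln was not tested.

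**Figure D3:**
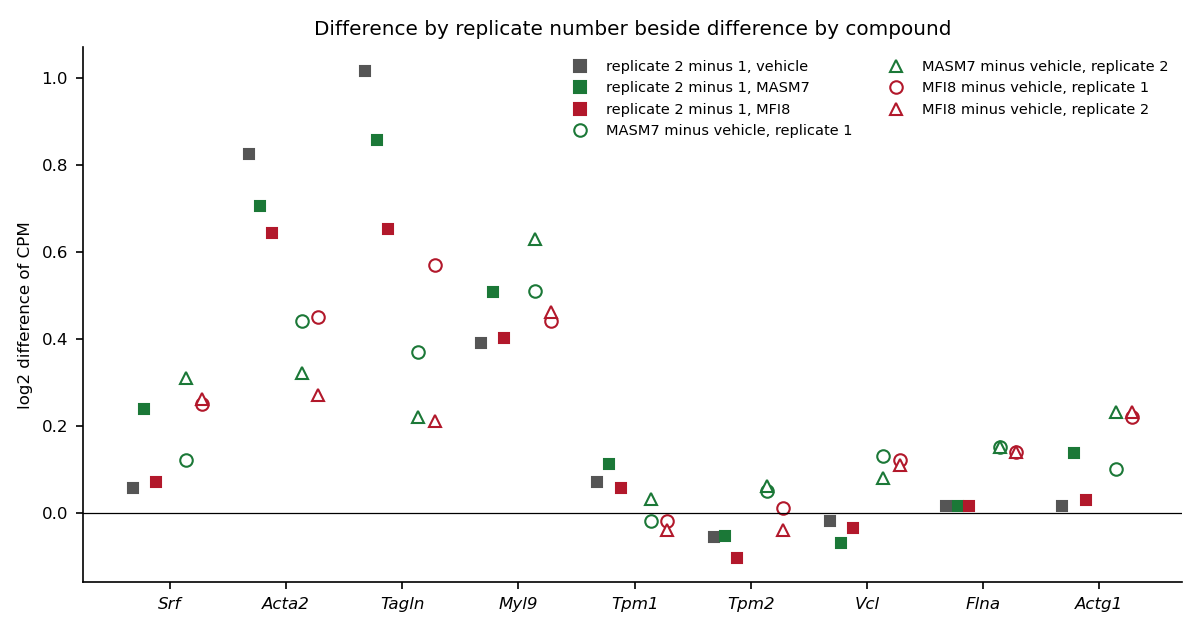
Log2 difference of CPM for the 9 genes tested. Filled squares give replicate 2 minus replicate 1 within each group, and open symbols give compound minus vehicle within replicate 1 (circles) and replicate 2 (triangles). In Acta2 and Tagln the squares lie above the open symbols, and in Flna the squares lie near 0 and the open symbols at 0.14 to 0.15.

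MFI8 and MASM7 have opposite reported actions on mitofusins, and their libraries were set against each other, at concentrations that differed. None of the 9 genes passed: the log2 differences, MFI8 minus MASM7, ran from -0.12 (Myl9) to 0.08 (Tagln), and all 9 overlapped between the groups in CPM. In TPM, as printed above, both MFI8 libraries were above both MASM7 libraries for Flna and Actg1. The share of all genes so placed in TPM was not computed. Against vehicle, in CPM, that share was 20.9% for MFI8 and 21.2% for MASM7, so this placing is not read as a difference between the compounds. The smallest edgeR adjusted p was 0.814, for Tpm2, and 0 of the 9 were higher at an unadjusted p under 0.05, against 4.23% of all genes. The intervals say how large a difference could have been missed. They were -0.11 to 0.09 for Flna, -0.06 to 0.18 for Actg1 and -0.14 to 0.21 for Srf, but -0.66 to 0.61 for Acta2 and -0.65 to 0.81 for Tagln. The block narrowed these last intervals to -0.11 to 0.07 and -0.06 to 0.22, and called none. With GC and length offsets as well, Srf was higher in MFI8 by 0.11 (edgeR adjusted p = 0.121) and Actg1 by 0.09 (adjusted p = 0.0838), and again none was called. Both had an unadjusted p under 0.05 in that fit, as had 2558 of 14290 genes in either direction.

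Other genes of the SRF system were followed through lists. Without the block 0 genes of any list were called, so the counts that follow are from the blocked edgeR fit. Of 23 tested cytoskeletal targets of MRTF and SRF, 11 were higher for MFI8, against 2.79% of all genes, and 10 for MASM7, against 2.48%, and none was lower. The median log2 fold changes of this list were 0.152 and 0.149, and with the GC and length offsets 0.105 and 0.0735. The filamin Flnc was higher by 0.35 for MFI8 (adjusted p = 4.72e-06) and by 0.19 for MASM7 (adjusted p = 0.0168). The focal adhesion genes Tgfb1i1 (0.35 and 0.39), Pdlim7 (0.31 and 0.23), Lpp (0.27 and 0.21) and Zyx (0.18 and 0.28) passed for both compounds, as did the nonmuscle myosin heavy chain Myh9 (0.22 and 0.18) and the calponin Cnn2 (0.15 and 0.16). Csrp1 (0.22), Pdlim5 (0.17) and Palld (0.17) passed for MFI8, and Itga5 (0.18) and Actn1 (0.16) for MASM7. With the GC and length offsets the counts were 8 for MFI8, against 1.73% of all genes, and 3 for MASM7, against 0.721%. The Flnc call held for MFI8 (0.21, adjusted p = 0.00035) and was lost for MASM7 (0.07, adjusted p = 0.334). In the fit without the block, leaving out vehicle replicate 2 took Myh9 to 0.13 for MFI8 and 0.10 for MASM7, Zyx to 0.10 for MFI8 and Itga5 to 0.08 for MASM7. Leaving out vehicle replicate 1 took Pdlim5 to 0.09 and Csrp1 to 0.14 for MFI8, and leaving out MFI8 replicate 2 took them to 0.10 and 0.14. Leaving out MASM7 replicate 2 took Flnc to 0.12 for MASM7. Actb, the other cytoplasmic actin, was higher by 0.20 (adjusted p = 0.0144) for MFI8 and 0.17 (adjusted p = 0.0474) for MASM7, the 1 gene called of 4 other actins and tropomyosins, and with the offsets its MASM7 call was lost (adjusted p = 0.102). Without the block, its MASM7 value was 0.11 when vehicle replicate 2 was left out. Smtn was higher by 0.19 (adjusted p = 0.0183) and 0.25 (adjusted p = 0.004), and both calls were lost with the offsets (adjusted p = 0.194 and 0.14). Of 2 tested cardiac markers 1 was called higher for MASM7, against 2.48% of all genes, and 0 with the offsets. It was Tnnt2, with 0.70 in the fit without the block and 1.77 to 2.13 TPM, against 1.17 to 1.27 in vehicle.

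Among 7 tested SRF cofactors, 1 was called for MASM7, against 2.48% of all genes. This was Mrtfa (0.27, edgeR adjusted p = 0.00342), which was not called for MFI8 (0.17, adjusted p = 0.0544), nor for MASM7 with the offsets (adjusted p = 0.0778). The difference of MFI8 from MASM7 did not pass (-0.11, adjusted p = 0.28). With the offsets Elk3, a TCF, was called lower for MFI8 (-0.14, adjusted p = 0.0296, against 2.44% of all genes), and without them it was not (-0.13, adjusted p = 0.0954).

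Of 9 tested immediate early genes of the TCF branch, 5 were higher and 1 lower for MFI8, against 2.79% and 2.25% of all genes: Fos by 1.33 (edgeR adjusted p = 0.0359), Fosb by 1.07 (adjusted p = 6.73e-05), Egr1 by 0.73 (adjusted p = 6.4e-05), Ier2 by 0.32 (adjusted p = 0.00529) and Junb by 0.26 (adjusted p = 0.0352), while Egr3 was lower (-0.57, adjusted p = 0.00233). For Fos and Egr1, MFI8 replicate 2 carried most of the difference. Fos had 0.917 to 1.08 TPM in vehicle and 1.2 and 3.97 in MFI8, and Egr1 had 48.7 to 50.6 and then 58.4 and 114. Without the block, leaving out MFI8 replicate 2 took Fos from 1.39 to 0.23, Egr1 from 0.77 to 0.21, Ier2 from 0.33 to 0.19 and Egr3 from -0.60 to -0.39. Leaving out vehicle replicate 1 took Egr3 to -0.15, and leaving out vehicle replicate 2 took Junb from 0.26 to 0.09. With the offsets 3 were higher, against 1.73% of all genes, and Fos (adjusted p = 0.0622) and Junb (adjusted p = 0.138) were not called. For MASM7 0 of 9 were called. Between the compounds 3 of the 9 were higher and 1 lower in MFI8, against 1.76% and 1.31% of all genes. Values with 1 library left out are not given for these genes in that comparison. MFI8 replicate 2, the higher MFI8 library for Fos and Egr1, enters it too. Targets of YAP and TEAD, listed as a further mechanosensitive pathway, were called for both compounds, against the same 2.79% and 2.48% of all genes. Whether SRF also acts on these genes was not tested. For MFI8 5 of 7 were called, with Ccn2 at 0.50, Ccn1 at 0.39, Thbs1 at 0.31, Ankrd1 at 0.28 and Amotl2 at 0.19. For MASM7 3 of 7 were called, with Thbs1 at 0.28, Ccn2 at 0.22 and Ccn1 at 0.18. With the offsets the counts were 4 and 2, against 1.73% and 0.721% of all genes. Between the compounds 3 of the 7 were higher in MFI8, with and without the offsets, against 1.76% of all genes in the fit without them: Ccn2 by 0.28 (edgeR adjusted p = 0.000534), Ccn1 by 0.21 (adjusted p = 0.0042) and Ankrd1 by 0.19 (adjusted p = 0.0153). In replicate 2 against replicate 1, 4 of the same 7 were called higher, against 2.54% of all genes, Ccn1 by 0.63, Ccn2 by 0.49, Ankrd1 by 0.25 and Thbs1 by 0.15. Without the block, leaving out MASM7 replicate 2 took Ccn1 and Ccn2 to -0.17 and -0.07 for MASM7, and leaving out MFI8 replicate 2 took them to 0.06 and 0.23 for MFI8 and took Ankrd1 to 0.16. Leaving out vehicle replicate 1 took Ccn1 and Ccn2 to 0.11 and 0.31 for MFI8 and to -0.10 and 0.02 for MASM7, Ankrd1 to 0.15 for MFI8 and Thbs1 to 0.18 for MASM7.

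**Figure D4:**
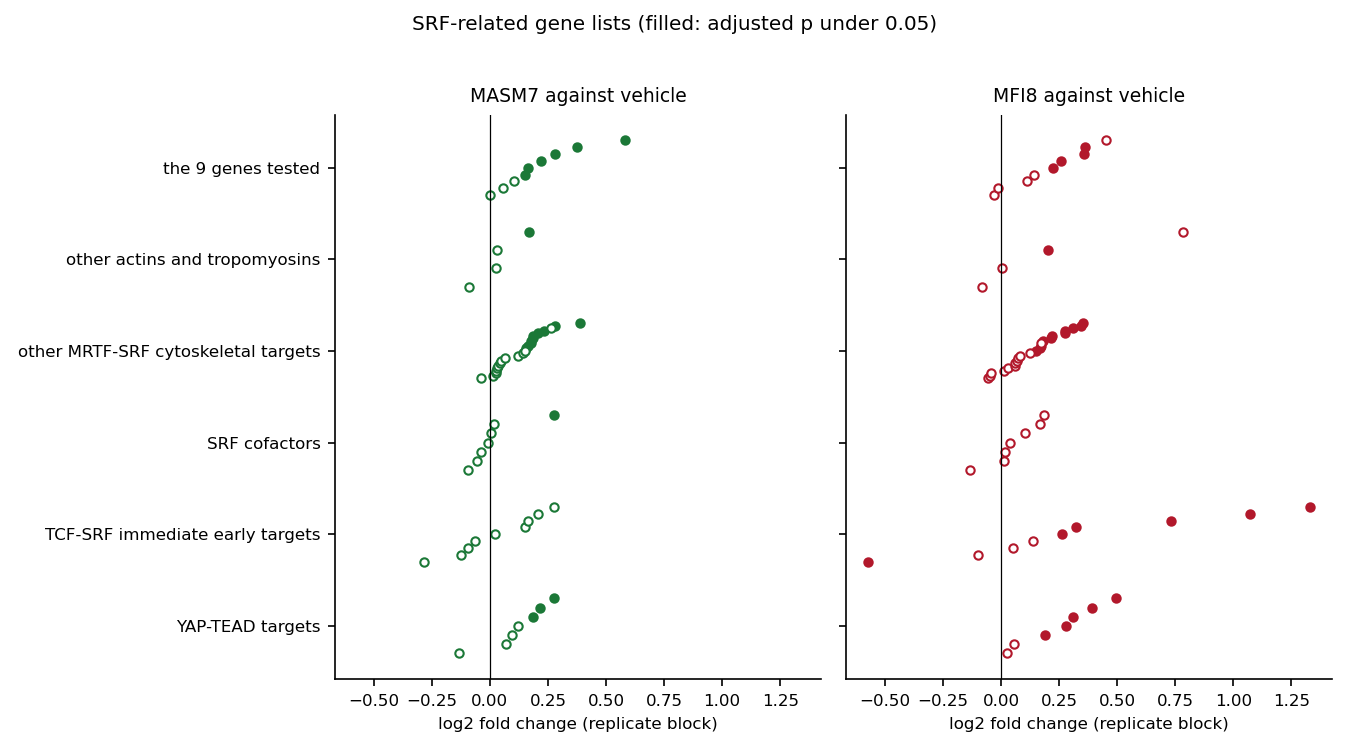
Log2 fold change against vehicle, from the blocked fit, of every tested gene in 6 lists, with 1 point a gene, MASM7 on the left and MFI8 on the right on the same axis. Filled points have an adjusted p under 0.05. Filled points of the cytoskeletal targets lie above 0 for both compounds (10 and 11 of 23), and the immediate early genes have filled points for MFI8 (6 of 9) and none for MASM7.

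Over the 6 libraries, Acta2 and Tagln had the most alike profiles of the 9 genes (Pearson r of log2 CPM = 0.99), followed by Srf and Actg1 (r = 0.97). Among 8882 other genes with a mean of at least 10 CPM, those near the top of the order for Acta2 were 2700038G22Rik (r = 0.992) and Edn1 (r = 0.986). Those nearest to Srf were Polg (r = 0.987), Klc2 (r = 0.986) and E4f1 (r = 0.986). These are descriptions over 6 points that share treatment, replicate number and depth, and 48 and 49 genes had an r over 0.95 with Acta2 and with Srf.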

How the data were processed

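RNA from MEFs was sequenced in 6 libraries (vehicle, MASM7 and MFI8, 2 each, assigned by the labels). Per the labels the submitters' processing notes name bcl2fastq, Trimmomatic, STAR, featureCounts and DESeq2 with mm10/GRCm38, of which the methods give a version for DESeq2 alone. The authors deposited raw counts per gene and TPM, both used here, and a normalized table, not used here. Counts were tested in R 4.3.3 with edgeR 4.0.16 (filterByExpr, TMM, quasi-likelihood test, all 6 libraries in 1 fit, Benjamini-Hochberg over 14290 genes). The fits were tested on simulated data. TPM served for levels.

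The labels number the replicates 1 and 2 in each group. Across 14290 genes the differences of replicate 2 minus replicate 1 correlated between groups at 0.188 (vehicle and MASM7), 0.152 (vehicle and MFI8) and 0.165 (MASM7 and MFI8). In the 7145 genes of higher mean level the values, in the same order, were 0.508, 0.621 and 0.538. A fit with the number as a block is therefore printed beside the main one. Alternatives were DESeq2 1.42.0, limma 3.58.1 on log2(TPM + 1) and log2(TPM + 0.1), other scalings and filters, and each library left out. GC and length offsets (GENCODE vM21, longest transcript, lowess) and a robust prior were added after seeing the data.

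The 10 genes and all lists were chosen with earlier results of these data known. Named from each other list are the genes called (cell type markers by count and range, with exceptions stated), and for Acta2 and Srf the 3 most correlated genes. Some genes and 1 list that this rule names are not reported here. Coordinates are GRCm38. Intervals cover the spread between these libraries only.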

Additional observations from a re-analysis of the deposited data

How the results depend on the processing

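For MFI8, MASM7 and MFI8 against MASM7, the genes called were 0, 0 and 0 without the replicate block and 720, 554 and 439 with it. They were 218, 184 and 113 with DESeq2 and the block, 49, 3 and 21 with DESeq2 alone, 595, 152 and 675 with the block and GC and length offsets, and 768, 636 and 478 with the block and a robust prior. Fitting only the groups compared called 1 gene for MASM7 and 2 between the compounds. Of the 9 genes, MFI8 and MASM7 called 4 and 6 with the block, 4 and 3 with DESeq2 and the block, 4 and 1 with the block and offsets, and 5 and 6 with the block and a robust prior. Tagln and Myl9 had no adjusted p in DESeq2 with the block.

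Without a filter beyond 1 count, edgeR called 256, 127 and 168 genes, and 5 and 3 of the 9, with no block. In that fit the prior degrees of freedom were infinite, against 6.86 in the main fit, so a gene's own spread between replicates was not used, and these calls are not taken as evidence. With the same genes and a robust prior, which was added for this reason, 219, 162 and 118 genes and 2 and 2 of the 9 were called. Acta2 then had an adjusted p of 0.918 for MFI8, and Tagln 0.949.

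The 9 genes had a median of 0.224 (log2) for MFI8. It was 0.235 with library size alone, 0.232 with no filter under either prior, 0.218 with 10 counts in every library, 0.251 with limma at either pseudocount, and 0.157 and 0.156 with the offsets without and with the block. Between the compounds limma gave 0.033 for this median. Leaving out 1 library gave 0 to 26, 0 to 2 and 0 to 24 genes called, medians of 0.125 to 0.237, 0.0944 to 0.232 and -0.0793 to 0.129, and 0 of the 9 called throughout.

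With 1 library left out, signs turned for MFI8 in Acta2 (-0.0169 to 0.811), Tagln (-0.0648 to 0.945), Tpm1 (-0.0601 to 0.00271) and Tpm2 (-0.0653 to 0.038), and for MASM7 in Acta2 (-0.0284 to 0.836), Tagln (-0.226 to 0.866) and Tpm1 (-0.0538 to 0.0581). Between the compounds they turned in Srf (-0.0793 to 0.165), Acta2 (-0.382 to 0.369), Tagln (-0.293 to 0.571), Myl9 (-0.351 to 0.153), Tpm1 (-0.0874 to 0.0242), Vcl (-0.0236 to 0.0468) and Actg1 (-0.00642 to 0.129). In the remaining reversals the value stayed near 0. For MASM7, Tpm1 was -0.00801 with the offsets, -0.00834 with offsets and block, -0.00802 with library size alone and -0.0144 with limma, and Tpm2 was -0.0291 and -0.0302 with the offsets without and with the block. For MFI8, Tpm2 was 0.0121 and 0.012 with limma. Between the compounds, Acta2 was 0.024 and 0.0239, Flna 0.033 and Tpm1 0.011 with limma, Flna was 0.0112 with library size alone, and Vcl was -0.0015 with no filter under either prior and -0.0182 and -0.0181 with the offsets without and with the block. The causes were not tested. With 2 libraries a group, differences of the size seen in Acta2 and Tagln did not pass in the filtered fits without the block.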
